A study of Mus musculus with 4 samples.

Results

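Mast cell granule proteases are represented here by 8 genes: the carboxypeptidase Cpa3, the chymases Cma1, Mcpt4, Mcpt1 and Mcpt2, the tryptases Tpsb2 and Tpsab1, and Mcpt8, the serine protease of basophils. The genes were chosen by symbol, and all 8 were rows of a table of 24421 genes. The table holds RNA sequencing counts of LSK cells, the bone marrow fraction that lacks lineage markers and carries Kit and Sca-1, which contains stem cells and early progenitors. There were 2 libraries from Zfp521-/- mice (KO), and they were set against 2 libraries from control littermates labelled wild type (WT). Zfp521 encodes a zinc finger transcription cofactor. No agent was given to either group, and the labels give neither strain, age nor the construction of the null allele. Each library is labelled as an independent RNA sample of pooled cells, with no number of mice given. The p-values therefore rest on variation among 4 pools, part of which may be technical.

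Mast cells store large amounts of active proteases in their granules, bound to the acidic sugar chains of the proteoglycan serglycin. Chymases cut after aromatic residues, tryptases after lysine and arginine, and the carboxypeptidase trims the free ends that other proteases leave. In mice, Cma1, Mcpt4, the tryptases and Cpa3 are known from mast cells of connective tissue, Mcpt1 and Mcpt2 from mast cells of mucosa, and Mcpt8 from basophils. Mast cells carry Kit on their surface, as LSK cells do, so the Kit gate of the sort does not by itself separate the cells.

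The chymases and Mcpt8 lie in 1 cluster on chromosome 14, the tryptases in another on chromosome 17, and Cpa3 on chromosome 3. Positions below are those of GENCODE in mm10. Cma1 spans chr14:55941451-55944675, Mcpt1 chr14:56017971-56020384, Mcpt2 chr14:56042041-56044642, Mcpt4 chr14:56059629-56062313 and Mcpt8 chr14:56082166-56085273. Mcpt1 and Mcpt2 are on the plus strand and the others of the cluster on the minus strand. Tpsab1 spans chr17:25343245-25345562 on the minus strand, Tpsb2 chr17:25366305-25369098 on the plus strand, and Cpa3 chr3:20215620-20242181 on the minus strand. All 8 are protein coding. Mir7007 overlaps Cpa3, with 15 and 4 counts in KO and 1 and 0 in WT, and Mir6949 overlaps Mcpt8 and had no counts. No other annotated gene overlaps a member.

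The members belong to families of related genes, and their coding sequences show how far a read of 76 bases, the length sequenced, can separate its members. Below are the most alike read-length stretches within 1 coding exon of the tryptase pair and of the chymases Mcpt4 and Mcpt1, from GENCODE transcripts, with the differing bases in capitals. They lie at chr17:25367721-25367796 (plus strand) for Tpsb2, chr17:25343469-25343544 (minus strand) for Tpsab1, chr14:56060995-56061070 (minus strand) for Mcpt4 and chr14:56019015-56019090 (plus strand) for Mcpt1.
Tpsb2: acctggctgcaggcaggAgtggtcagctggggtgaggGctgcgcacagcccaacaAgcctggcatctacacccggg
Tpsab1: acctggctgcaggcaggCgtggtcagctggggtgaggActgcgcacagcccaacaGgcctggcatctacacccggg
Mcpt4: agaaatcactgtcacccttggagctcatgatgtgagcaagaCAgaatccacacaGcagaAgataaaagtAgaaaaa
Mcpt1: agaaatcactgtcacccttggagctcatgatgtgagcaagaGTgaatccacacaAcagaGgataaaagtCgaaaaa

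The tryptases differed at 3 of 76 bases in this stretch, and no window of either transcript came closer to another family member. Over the coding sequence Tpsb2 and Tpsab1 were 74.9% identical, Mcpt4 and Mcpt1 86.4%, Mcpt1 and Mcpt2 81.0%, and Mcpt4 and Mcpt2 79.4%. Cma1 stood further off, at 64.6% to Mcpt4. Of the 76-base windows of Mcpt4 transcripts, 2.42% also occurred in Cma2 and 9.97% came within 2 mismatches of another family member. For Mcpt1 and Mcpt2 the share within 2 mismatches was 6.07% and 5.58%, and for Cpa3, Tpsb2, Tpsab1, Cma1 and Mcpt8 it was 0%. Of the Cma1 windows 1.58% also occurred in the predicted gene Gm48934, which has no row in the table. The copies that most resemble Mcpt4 had almost no reads: Cma2, Mcpt9 and Mcpt1 had 0 counts in every library. Windows within 2 mismatches were sought only in transcripts of the members and of some relatives, on the same strand and without gaps. Exact matches were sought in annotated transcripts only. The reference is C57BL/6J, and how the authors' counting treated reads with several matches is not given in the sources used here. The split between copies is therefore uncertain to at least this extent.

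The promoters of Cpa3, Cma1, Mcpt4 and Mcpt1 are printed because the first 3 genes were higher together in KO and the last had no reads in the same cells. Each line gives the 200 bases before the transcription start from RefSeq (GRCm38.p6), read along the gene's strand. Capitals mark GATAA or GATAG preceded by A or T, on either strand, the core that GATA factors bind. The stretches are chr3:20242182-20242381, chr14:55944676-55944875 and chr14:56062311-56062510, all on the minus strand, and chr14:56017764-56017963 on the plus strand.
Cpa3: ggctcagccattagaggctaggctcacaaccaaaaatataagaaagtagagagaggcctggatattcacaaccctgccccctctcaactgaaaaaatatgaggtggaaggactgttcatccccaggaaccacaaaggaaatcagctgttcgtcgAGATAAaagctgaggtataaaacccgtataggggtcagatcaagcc
Cma1: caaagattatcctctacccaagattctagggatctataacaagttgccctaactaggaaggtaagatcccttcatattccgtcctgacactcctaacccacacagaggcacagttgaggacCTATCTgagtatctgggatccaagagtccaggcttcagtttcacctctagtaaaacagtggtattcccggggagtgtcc
Mcpt4: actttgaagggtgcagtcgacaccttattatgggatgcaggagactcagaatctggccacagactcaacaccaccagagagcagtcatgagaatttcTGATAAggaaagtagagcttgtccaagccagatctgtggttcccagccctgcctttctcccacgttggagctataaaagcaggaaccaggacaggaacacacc
Mcpt1: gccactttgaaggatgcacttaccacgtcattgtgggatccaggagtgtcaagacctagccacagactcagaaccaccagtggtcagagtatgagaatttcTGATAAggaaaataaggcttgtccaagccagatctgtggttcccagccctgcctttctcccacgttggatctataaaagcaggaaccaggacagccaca

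RefSeq listed promoters for 5 of the 8 genes, Mcpt8 being the other. The GATA core occurred 46 bases before the start of Cpa3, 79 before Cma1, 103 before Mcpt4 and 99 before Mcpt1, and not in the 250 bases before Mcpt8. Among all 32851 listed promoters, 26.5% hold it in the same 250 bases. TATAAA lay 31, 32 and 28 bases before the start of Cpa3, Mcpt4 and Mcpt1, against 12.4% of promoters with it anywhere in the window on either strand. Mcpt4 and Mcpt1 were 84.1% identical over these 250 bases and shared both matches. These are matches of letters and not shown binding sites.

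Library totals ran from 17787425 to 22000036 counts in KO and from 25813391 to 29863594 in WT, where a floor of 3 counts equals 0.136 and 0.152 CPM in KO and 0.108 and 0.121 CPM in WT (counting error only; CPM is counts scaled to a common library total, here with TMM factors). Zfp521 had 308 and 215 counts in KO and 1561 and 1429 in WT. Kit stood at 697 and 702 CPM in KO and 617 and 708 CPM in WT, and Ly6a, the gene of Sca-1, at 37.3 and 67.0 CPM in KO and 47.7 and 36.9 CPM in WT. Of 5 gate and subset markers tested, Cd34 was called lower (log2 fold change -0.61), a call lost without either WT library, without KO replicate 2 or with upper quartile scaling. Among the lineage markers, the myeloid integrin gene Itgam was called higher (log2 fold change 0.84), a call lost when either WT library was left out. The T cell gene Cd3e stayed below 1 CPM in every library and the globin genes Hbb-bt and Hba-a1 were listed at 0. Xist had 227405 and 230977 counts in KO and 160613 and 606 in WT, and 4 Y-linked genes together had 9 and 12 counts in KO and 14 and 5606 in WT, so WT replicate 2 stood apart in sex.

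Most granule proteases were far more abundant in KO. Cpa3, Cma1, Mcpt4, Tpsb2 and Tpsab1 rose between 6.56-fold and 43.0-fold, Mcpt8 did not pass the test, and Mcpt1 and Mcpt2 had too few reads to be tested. Of the 6 genes tested, edgeR's quasi-likelihood test called 5 higher and 0 lower in KO (threshold 0.05, Benjamini-Hochberg adjustment over all genes tested), as DESeq2 did. Across all 14140 genes tested, 3.77% were called higher and 3.01% lower by edgeR; DESeq2 called 6.00% and 5.74% of its genes, and upper quartile scaling in edgeR, which shifts the split toward higher calls, 4.70% and 2.04%. All 6 tested genes had both KO libraries above both WT libraries, as 28.8% of all tested genes did. Their median log2 fold change was 3.74, against 0.02 over all genes tested. These counts describe the 6 genes that passed the low-count filter, which a gene with reads in KO alone can pass. In sorted bulk RNA, more cells of a type and more RNA per cell cannot be told apart.

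**Figure D1:**
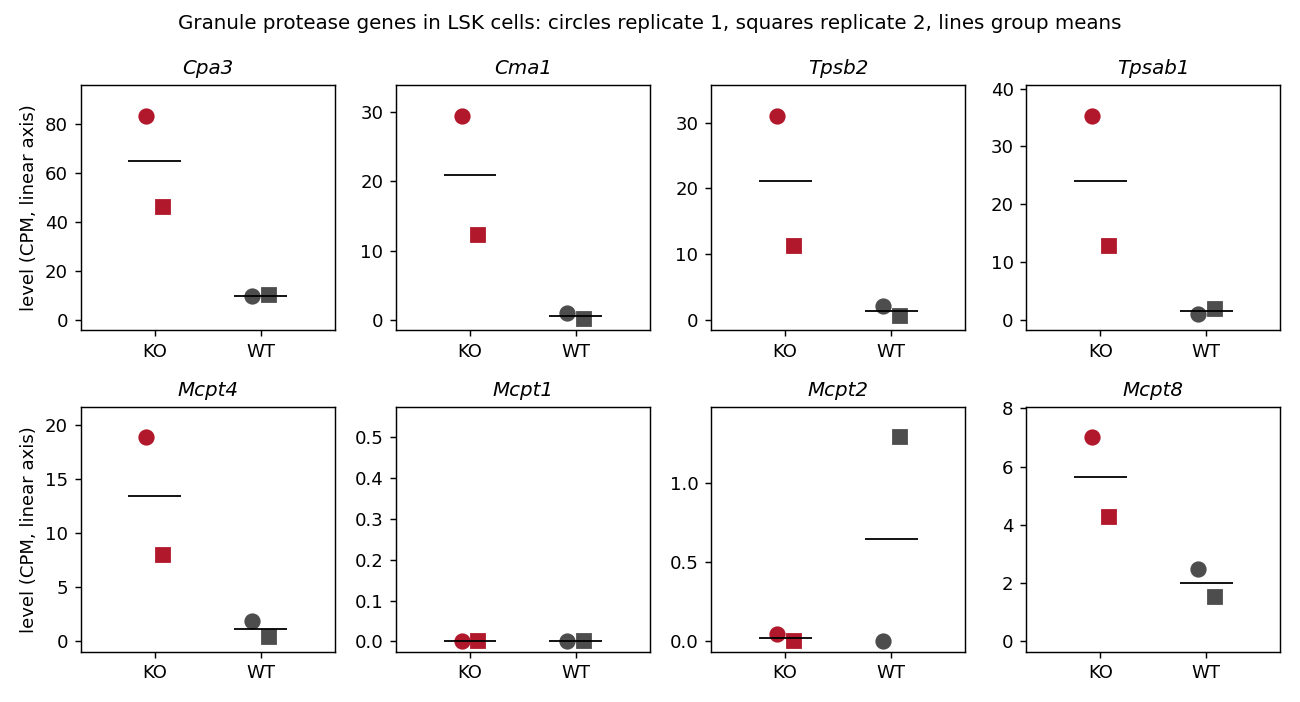
Level of each of the 8 genes in CPM (linear axes that differ between panels) in KO libraries (red) and WT libraries (grey), with circles for replicate 1, squares for replicate 2 and lines for group means. In 6 panels both KO libraries lie above both WT libraries, with KO replicate 1 above KO replicate 2; Mcpt1 is at 0 throughout and Mcpt2 is seen mainly in WT replicate 2.

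Cpa3, the mast cell carboxypeptidase, had the most reads of the 8 genes in every library. It had 1844 and 903 counts in KO and 272 and 247 in WT, or 83.4 and 45.9 CPM in KO and 9.77 and 9.94 CPM in WT. The WT libraries were nearly equal, the KO libraries differed, and the groups did not overlap. The means were 64.6 ± 26.5 CPM in KO and 9.86 ± 0.122 CPM in WT (SD, n = 2 each), a log2 fold change of 2.71 (SE 0.29, edgeR adjusted p = 0.000502). Leaving out any library kept the call, with log2 fold changes from 2.21 to 3.07.

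Cma1, a chymase that in mice has elastase-like activity, had the largest fold change of the tested members with all 4 libraries, a rank that passed to Tpsab1 when WT replicate 2 was left out (log2 fold change 4.52 for Cma1 and 4.56 for Tpsab1). Its counts were 653 and 242 in KO and 25 and 1 in WT, or 29.5 and 12.3 CPM in KO and 0.898 and 0.0403 CPM in WT. WT replicate 2 lay below the floor of 3 counts, so the size of the fold rests on 26 WT reads. The means were 20.9 ± 12.2 CPM in KO and 0.469 ± 0.607 CPM in WT (SD, n = 2 each), with a log2 fold change of 5.43 (SE 0.78, edgeR adjusted p = 0.00301). Its log2 fold change was 8.83 with WT replicate 1 left out, 4.52 with WT replicate 2 left out and 4.66 with KO replicate 1 left out, and each of these fits kept the call.

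Mcpt4, the main chymase of connective tissue mast cells in mice, followed the same order of libraries. It had 417 and 158 counts in KO and 52 and 11 in WT, or 18.9 and 8.03 CPM in KO and 1.87 and 0.443 CPM in WT. The log2 fold change was 3.52 (SE 0.65, edgeR adjusted p = 0.0111). Mcpt4 was the member whose call came nearest to the threshold when a library was left out: without WT replicate 2 the log2 fold change was 2.83 (edgeR adjusted p = 0.0437; 3.9e-11 to 0.0437 over its 10 alternatives). Leaving out WT replicate 1 gave 4.90 and leaving out KO replicate 1 gave 2.77.

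The mucosal chymases had almost no reads in KO. Mcpt1 had no read in any of the 4 libraries, which allows up to 0.136 and 0.152 CPM in KO and 0.108 and 0.121 CPM in WT. Mcpt2 had 1 and 0 counts in KO and 0 and 32 in WT, so all but 1 of its reads came from WT replicate 2, at 1.29 CPM. With no filter on low counts Mcpt2 was fitted and not called (edgeR adjusted p = 0.170). The promoter of Mcpt1 printed above shares most of its letters with that of Mcpt4, which had 638 reads in the same libraries.

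The tryptases Tpsb2 and Tpsab1, whose products assemble into heparin-bound tetramers, both rose. Tpsb2 had 688 and 220 counts in KO and 58 and 15 in WT, or 31.1 and 11.2 CPM in KO and 2.08 and 0.604 CPM in WT. Tpsab1 had 782 and 251 counts in KO and 28 and 48 in WT, or 35.4 and 12.8 CPM in KO and 1.01 and 1.93 CPM in WT. The genes had the same order of KO libraries and opposite orders of WT libraries. The log2 fold change was 3.96 for Tpsb2 (SE 0.61, edgeR adjusted p = 0.00447) and 4.04 for Tpsab1 (SE 0.53, edgeR adjusted p = 0.00166). Tpsb2 had 5.11 when WT replicate 1 was left out, 3.32 for WT replicate 2 and 3.04 for KO replicate 1. Tpsab1 had 3.63 when WT replicate 1 was left out, 4.56 for WT replicate 2 and 3.11 for KO replicate 1, so which tryptase had the larger fold change turned with the WT library kept. The difference between them was not tested.

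Mcpt8, the basophil protease, had 155 and 84 counts in KO and 69 and 38 in WT, or 7.01 and 4.27 CPM in KO and 2.48 and 1.53 CPM in WT. The groups did not overlap, but the log2 fold change of 1.49 (SE 0.56) missed the threshold (edgeR adjusted p = 0.126), as it did in all 10 alternatives (adjusted p from 0.0539 to 0.413). Whether its change differs from those of the mast cell proteases was not tested.

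**Figure D2:**
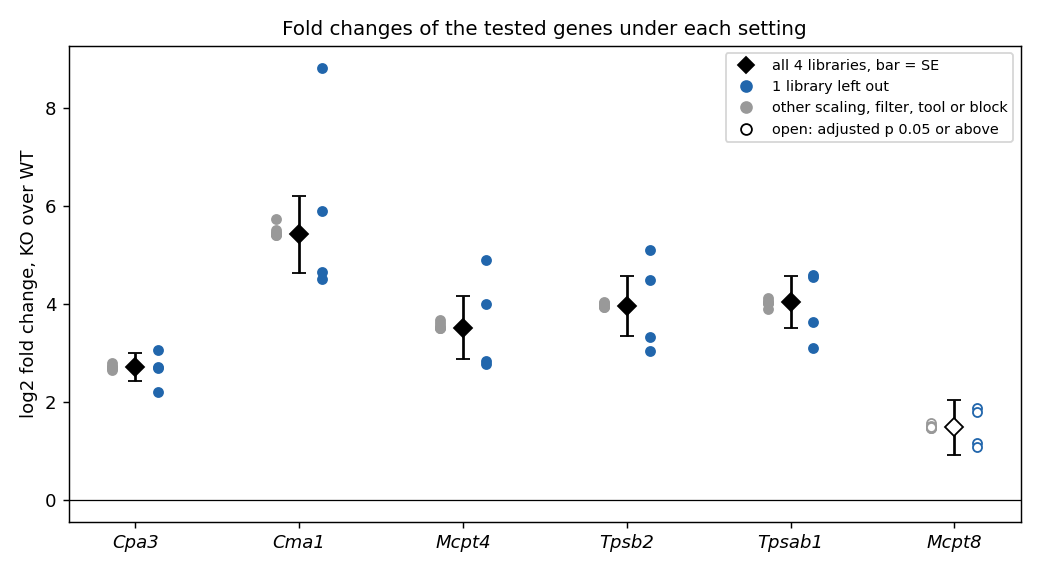
Log2 fold change, KO over WT, of the 6 tested genes: black diamonds with SE bars use all 4 libraries, blue points leave out 1 library, grey points change the scaling, filter, tool or block, and open symbols have an adjusted p of 0.05 or above. Every symbol of Cpa3, Cma1, Mcpt4, Tpsb2 and Tpsab1 is filled and every symbol of Mcpt8 is open; Cma1 reaches 8.83 without WT replicate 1.

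Levels were also set on a per-length scale, as CPM per kilobase of annotated exons, to order the genes within a group. In KO, Cpa3 averaged 42.6 ± 17.5, Cma1 19.2 ± 11.2, Tpsb2 13.3 ± 8.84, Mcpt4 12.1 ± 6.91, Tpsab1 11.5 ± 7.63 and Mcpt8 5.65 ± 1.94 CPM per kilobase (SD, n = 2). Cpa3 was highest and Cma1 next in both KO libraries (55.0 and 27.1 CPM per kilobase in replicate 1, 30.2 and 11.3 in replicate 2), and Mcpt8 was below these, Tpsb2, Mcpt4 and Tpsab1 in both. Tpsb2, Mcpt4 and Tpsab1 differed by less than their SD, and Tpsb2 and Mcpt4 changed places between the KO libraries. In WT, Cpa3 averaged 6.50 ± 0.080 and Mcpt8 2.01 ± 0.672, while Mcpt4 (1.04 ± 0.909), Tpsb2 (0.843 ± 0.656), Tpsab1 (0.702 ± 0.313), Mcpt2 (0.607 ± 0.858) and Cma1 (0.430 ± 0.556) did not differ beyond their spread. Mcpt8 thus ranked below 5 other members in KO and below Cpa3 alone in WT.

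Within each of 2 pairs of related genes, chosen after their values were seen, the shares of reads were close in the KO libraries. Tpsab1 took 53.2% of the tryptase reads in KO replicate 1 (95% Wilson interval 50.6 to 55.7) and 53.3% in KO replicate 2 (48.8 to 57.8). It took 32.6% in WT replicate 1 (23.6 to 43.0) and 76.2% in WT replicate 2 (64.4 to 85.0), and these intervals do not overlap each other. Among the reads of Cma1 and Mcpt4 together, Cma1 took 61.0% (58.1 to 63.9) and 60.5% (55.6 to 65.2) in KO, and 32.5% (23.1 to 43.5) and 8.33% (1.49 to 35.4) in WT. The WT shares rest on 63 and 86 tryptase reads and on 12 and 77 reads of these chymases. Intervals cover counting error only, since amplified reads without molecular identifiers are not independent molecules.

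**Figure D3:**
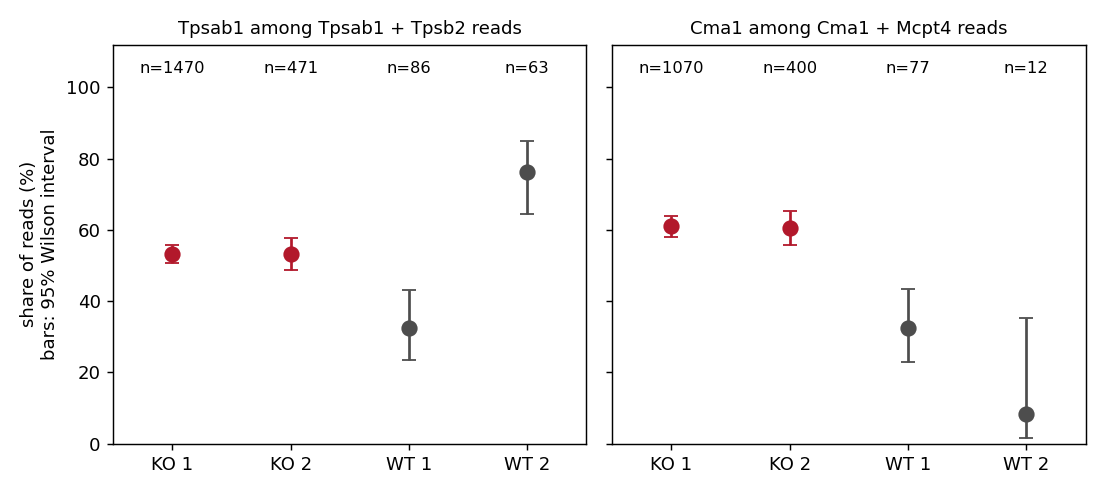
Share of reads (%) of Tpsab1 among both tryptases (left) and of Cma1 among Cma1 and Mcpt4 (right) in each library, KO in red and WT in grey, with 95% Wilson intervals and the number of reads above each point. The KO libraries sit at 53.2% and 53.3% on the left and at 61.0% and 60.5% on the right, while the WT libraries lie apart from them and, for the tryptases, from each other.

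All 8 genes together made up 205 and 94.4 CPM in KO and 18.1 and 15.8 CPM in WT. Cpa3 gave 40.6% and 48.6% of these reads in KO and 54.0% and 63.0% in WT. Mcpt8 gave 3.41% and 4.52% in KO and 13.7% and 9.69% in WT.

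The KO libraries differed from each other in the proteases in 1 direction. Every tested member was higher in KO replicate 1 than in KO replicate 2, by 1.64 times (Mcpt8) to 2.78 times (Tpsb2) in CPM, where 90% of genes lay between 0.423 and 2.16. Of the 9 other mast cell and basophil markers called higher in KO, 4 were higher in KO replicate 1 and 5 in KO replicate 2. The 4 were Il1rl1, Lilrb4a, Tph1 and Mrgprb1, from 1.24 times (Il1rl1) to 1.85 times (Mrgprb1). Hdc, which makes histamine, had 12.5 and 28.1 CPM in KO replicates 1 and 2 (2.84 and 3.74 CPM in WT), the opposite order to the proteases. Slc18a2, the transporter that loads amines into granules, had 118 and 194 CPM in KO (48.2 and 55.8 CPM in WT), again with KO replicate 2 higher. The eosinophil granule genes Epx and Prg2 were low in KO replicate 1 alone: Prg2 had 2.67 and 37.1 CPM in KO and 38.1 and 31.6 CPM in WT. The part of such differences between the KO pools in the protease levels was not tested.

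Other markers of mast cells and basophils were also higher in KO. Of 23 tested genes of a list without proteases, 9 were called higher and none lower, a share of 39.1%, with a median log2 fold change of 1.45, and the summed level of the list was 655 and 728 CPM in KO and 345 and 406 CPM in WT. Il1rl1, the receptor for interleukin 33, had 37.3 and 30.2 CPM in KO and 1.44 and 2.66 CPM in WT (log2 fold change 4.05, SE 0.37, edgeR adjusted p = 0.000132). Hdc (log2 fold change 2.62) and Slc18a2 (1.59) rose as well and, like Il1rl1, kept the call with each library left out. Alox5, the lipoxygenase that starts leukotriene synthesis, rose by 3.20 (log2), but missed the threshold without WT replicate 1 (edgeR adjusted p = 0.0539). The list had 5 calls without WT replicate 1 and 4 without WT replicate 2. Fcer1a, the ligand-binding chain of the IgE receptor and a defining marker, stayed low, with 0.904 and 0.102 CPM in KO and 0.0359 and 0.443 CPM in WT. Ms4a2, the beta chain of that receptor, was called higher, at 6.65 and 7.72 CPM in KO and 1.54 and 0.523 CPM in WT, a call lost without WT replicate 2. Fcer1g, its gamma chain, had 40.4 and 32.9 CPM in KO and 21.9 and 27.7 CPM in WT and was not called. Cd200r3, another surface marker of mast cells and basophils, had 0.950 and 0.254 CPM in KO and 0.216 and 0.604 CPM in WT, with overlapping groups. The serotonin enzyme Tph1 (2.49 and 1.63 CPM in KO) and the receptor Mrgprb1 (2.26 and 1.22 CPM in KO) had no read in WT. Both were called higher, but both lost the call when either WT library was left out, and both fell below a filter at a mean of 2 CPM. These were chosen as examples after their values were seen, apart from Il1rl1, Slc18a2, Hdc and Alox5.

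Neighbours of the members in the gene clusters were counted next. Of 10 other genes of the chromosome 14 cluster in the table, 8 had no read at all, Cma2, Mcpt9 and 6 granzyme genes. Ctsg, the cathepsin G gene of neutrophil and mast cell granules, rose to 40.7 and 37.7 CPM in KO, against 9.99 and 8.29 CPM in WT (4.29-fold, SE 0.26 on the log2 scale, edgeR adjusted p = 0.00110). Unlike the members, Ctsg was nearly equal in the KO libraries. The granzyme gene Gzmb had 46 and 123 counts in KO and 0 and 14 in WT and was not called by edgeR (adjusted p = 0.0691). Both tested genes of the cluster, Ctsg and Gzmb, were called higher by DESeq2, and edgeR called both with no filter, with the 2 CPM filter, and when WT replicate 2 or KO replicate 1 was left out. In the tryptase cluster 5 of 11 other genes had no read. With all 4 libraries 0 of 3 tested genes were called by edgeR and 0 by DESeq2, and 0 had an unadjusted p under 0.05 in edgeR. Among the alternatives, a call in this cluster arose only when KO replicate 1 was left out. Prss34, a tryptase-like protease of basophils and mast cells, had 62 and 14 counts in KO and 34 and 1 in WT, with replicate 1 higher in both groups. Prss33 had 1 and 93 counts in KO and 2 and 19 in WT, Prss27 had 3 and 28 in KO and 5 and 15 in WT, and Prss41 had 6 and 31 in KO and 5 and 3 in WT, so in KO these genes had the opposite order of replicates.

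Genes that store and activate the proteases gave no calls in edgeR with all 4 libraries and the main settings, nor in DESeq2. Of 18 genes for serglycin, the synthesis and sulfation of its sugar chains, and lysosomal proteins, 0 were called by edgeR and 0 by DESeq2. In edgeR 5 had an unadjusted p under 0.05 (3 upward and 2 downward), and the median log2 fold change was 0.00. The replicate block gave 1 higher and 1 lower call, and no filter gave 1 lower call. Calls also arose when WT replicate 1 or KO replicate 1 was left out. Srgn, the serglycin gene, had 274 and 275 CPM in KO and 293 and 341 CPM in WT. Ctsc, the dipeptidyl peptidase that removes the activation peptide of granule serine proteases, had 37.9 and 43.9 CPM in KO and 43.1 and 36.8 CPM in WT. Of 13 tested protease inhibitors 3 were called higher (23.1%, median 0.42): the serpins Serpina3g and Serpina3f and the cystatin Cst3. Serpina3f had 31.4 and 35.9 CPM in KO and 7.87 and 15.9 CPM in WT (2.83-fold, SE 0.33 on the log2 scale, edgeR adjusted p = 0.0236). None of the 3 kept the call without WT replicate 1. Among 4 tested carboxypeptidases other than Cpa3, 0 were called by edgeR and 0 by DESeq2, and Cpa6 alone had an unadjusted p under 0.05 (edgeR, 0.0389).

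Transcription factors that act on mast cell genes were mostly not called. Of 16 tested, Ikzf2 was higher (log2 fold change 0.57) and Hes1, a Notch target, was lower (log2 fold change -2.82); Ikzf2 lost the call without either WT library or without KO replicate 2, and Hes1 without WT replicate 2. Gata2, a factor required for mast cells whose core motif is marked above, had 224 and 159 CPM in KO and 132 and 137 CPM in WT (log2 fold change 0.51, edgeR adjusted p = 0.108). Mitf had 13.2 and 5.28 CPM in KO and 3.41 and 7.33 CPM in WT, with overlapping groups. Gata2 and Mitf were chosen after their values were seen.

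Markers of other granule-bearing cells were compared as well. Of 13 neutrophil markers, 6 were higher and 1, Mpo, was lower (median 0.92); Chil3 had 135 and 121 CPM in KO and 29.1 and 37.4 CPM in WT (log2 fold change 1.95). The 6 calls became 1 without WT replicate 1 and 3 without KO replicate 1, and DESeq2 called 10 higher. S100a8 (1.24) lost its call without WT replicate 1, Mpo (-0.63) without either WT library, and Lcn2 (0.90) without either WT library or KO replicate 1. The summed level of the list was 2030 and 1685 CPM in KO and 1774 and 1833 CPM in WT. Mpo alone gave 878 and 799 CPM of this in KO and 1353 and 1235 CPM in WT, so the sum does not show the direction of the other genes. At an unadjusted p under 0.05 in edgeR there were 12 of the 13 markers, 11 upward and 1 downward. Of 8 eosinophil markers tested, 0 were called by edgeR and 1, downward, by DESeq2, with 2 at an unadjusted p under 0.05 in edgeR, Siglecf upward and Ear1 downward. Of 6 cytotoxic lymphocyte markers, Klrk1 was higher, at 3.21 and 1.78 CPM in KO and 0.0718 and 0.121 CPM in WT, a call lost without either WT library or KO replicate 1. Of these 6 cytotoxic markers, 3 had both KO libraries above both WT libraries and 3 had both below. At an unadjusted p under 0.05 in edgeR there were 2 upward, Klrk1 and Gzmb, and 2 downward, Gzma and Nkg7. The log2 fold change was -4.31 for Gzma and -0.78 for Nkg7, and neither was called by edgeR. DESeq2 called 2 of the list higher and 1 lower. The part of the neutrophil, eosinophil and cytotoxic cell types in the protease levels was not tested.

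Genes were ranked by the distance of their profile over the 4 libraries from that of Cpa3 and of Cma1. Log2 CPM was used, with a prior count of 2 added and each gene's mean taken away. Nearest to Cpa3 were Slc45a3 (distance 0.19), Aox2 (0.25), Zfp711 (0.27), Ppp1r14a (0.27) and Cd74 (0.29). Ppp1r14a had 15 and 8 counts in KO and 0 and 0 in WT, and Aox2 had 39 and 15 in KO and 4 and 3 in WT. At such counts the added prior narrows the differences between libraries, so the nearness of these genes is uncertain. The prostein gene Slc45a3 had 6.10 and 3.71 CPM in KO and 0.647 and 0.604 CPM in WT. Cd74, the invariant chain of major histocompatibility class II, had 394 and 282 CPM in KO and 56.9 and 53.6 CPM in WT. Nearest to Cma1 were Fzd2 (0.90), Mrgprb2 (1.90), Abca8b (2.03), Tpsb2 (2.06) and Olfm1 (2.08). Mrgprb2, a mast cell receptor, had 98 and 38 counts in KO and 11 and 0 in WT. Within the family, Tpsb2 and Mcpt4 lay closest, at 0.41, and Cma1 and Mcpt8 farthest apart, at 4.64. These distances over 4 libraries depend on the order of libraries within a group as well as on the difference between groups, as Tpsb2 and Tpsab1 with nearly equal fold changes lay 1.80 apart, and they carry no test.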

How the data were processed

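RNA sequencing counts of 4 LSK libraries, 2 KO and 2 WT, were analysed; titles gave the group and the replicate number. The deposited values are unnormalized counts of reads for each gene symbol; no row held unassigned reads. HTSeq 0.8.0, Picard 2.9.4, SAMtools 1.5 and TopHat2 2.1.1, with build mm10, are named per the submitters' processing notes; per the labels' protocols, reads had 76 cycles. The sources used here do not give the annotation, strand setting or treatment of multiple matches and duplicates, so reads of antisense partners cannot be told apart.

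Under R 4.3.3, edgeR 4.0.16 tested the counts (scaling by TMM, filterByExpr with a minimum count of 10 and a minimum total of 15, quasi-likelihood test of KO over WT without a covariate), with Benjamini-Hochberg adjustment across every gene that was tested and a threshold of 0.05. The SE of a log2 fold change is its size divided by the square root of F. The fit was checked on simulated counts. With 2 libraries per group an exact permutation of labels cannot give a p below 0.333. Alternatives were other scaling, filters, DESeq2 1.42.0, a replicate block and leaving out each library. Exonic lengths and positions came from GENCODE on mm10. Members and gene lists were chosen with earlier results of these data known. Named genes are all members, up to 4 called genes per list with the smallest p, genes of both clusters with at least 10 counts, and the 5 genes nearest to Cpa3 and to Cma1; the nearest genes exclude Xist, Y-linked genes, pseudogenes and predicted models. Other genes named, among them Epx, Prg2, Srgn, Ctsc, Cpa6, Siglecf, Ear1, Kit, Ly6a, Cd3e and the globin genes, were chosen after their values were seen. Mcpt3, Mcpt10, Ly6g and Gp49a were not analysed here, and 1 result among the lineage markers is not reported here.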

Additional observations from a re-analysis of the deposited data

How the results depend on the processing

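The 5 members called higher numbered 5 under all 10 alternatives and 0 were called lower; the 60 member fold changes kept their sign and their side of the threshold. Over all genes, 533 higher and 425 lower calls became 1056 and 987 with no filter, 854 and 817 in DESeq2, and 160 to 997 and 95 to 1161 with each library left out; the related lists' 22 higher and 4 lower calls became 34 and 12 with no filter, 7 lower in DESeq2, and 7 to 27 and 1 to 9 with each library left out. The replicate numbers do not pair the samples by any label, and deviations of same-numbered libraries correlated at 0.08 over genes; with the replicate block, all genes gave 1312 higher and 1314 lower calls, the related lists 39 and 12, and the members 5 and 0. The cause of these differences was not tested. Of all counts by list and direction under the alternatives, 84 moved and 216 did not. A move was a change by over 1.5 times or a change from or to 0. Counts of 0 in both fits are among those that did not move. Upper quartile factors moved the median log2 fold change of all genes to 0.10 and gave 664 higher and 289 lower calls. Depth limits Mcpt1, Mcpt2 and the WT level of Cma1.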
